A study of Homo sapiens with 8 samples.

Results

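Notch is a signalling pathway between touching cells, and 34 of its genes are described here: ligands, receptors, the enzymes that modify and cut the receptors, the nuclear complex and the target genes. They were chosen by symbol from a fixed list and all 34 were found among the 26475 genes of the deposited table. The samples are 8 RNA-seq libraries of BT474, an established luminal-type human breast cancer line with amplified ERBB2: 4 labelled NPY1R high and 4 labelled NPY1R low. This gene encodes a receptor for neuropeptide Y, and the labels give the 2 states as genotypes. They do not state how the states were obtained, name no drug treatment, and do not say whether the replicates came from separate cultures, so p-values here measure the spread between these libraries, which may be technical. All libraries are of the same line and were seeded below confluence in the same plate format. The series belongs to a study of cells that tolerate lapatinib, and the comparison asks how expression differs with the level of NPY1R. Below, high and low libraries stand for NPY1R high and NPY1R low, and values after ± are SDs over the 4 libraries of a group.

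In canonical Notch signalling, a ligand of the Jagged or Delta-like family on one cell binds a NOTCH receptor on its neighbour. The receptor is then cut outside the membrane by an ADAM protease and within it by γ-secretase. The freed intracellular domain enters the nucleus, where it joins the DNA-binding protein RBPJ and a Mastermind co-activator to switch on genes such as the HES and HEY repressors. In breast epithelium the pathway is known for its part in the choice between luminal and basal fates.

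Total expected counts (gene-level estimates that need not be whole) ranged from 18025648 to 30609791 per library. NPY1R had 17256 to 28986 counts in the NPY1R high libraries and 2028 to 2709 in the NPY1R low libraries, so the labels matched the gene that names them. The luminal markers fixed for the check (EPCAM, KRT8, KRT18, KRT19, GATA3, FOXA1, ESR1 and ERBB2) were all expressed, with a summed level of 6653 to 7737 CPM (counts scaled to a common library size) in high and 6376 to 8683 CPM in low libraries. GATA3 and ESR1 were called higher and EPCAM and FOXA1 lower, by the test given in the next paragraph. Summed CPM of 5 basal markers was 5.05 to 8.98 against 4.80 to 7.78, and KRT14 was at 0. Summed CPM of 5 fibroblast markers was 10.8 to 17.5 against 10.4 to 17.4, with COL1A2, DCN and PDGFRB at 0. For 5 endothelial markers it was 9.22 to 15.6 against 13.5 to 18.2, with TEK at 0, and for 5 immune markers 1.54 to 2.49 against 1.74 to 2.91, with CD3E at 0. These ranges overlapped between the groups. Most of the basal, fibroblast and endothelial sums came from 1 gene each: TP63 (mean 6.32 CPM over the 8 libraries), COL1A1 (14.8) and VWF (13.9). In the luminal sum ERBB2 was the largest part, with a mean of 3468 CPM. Of the 5 genes of these lists that could be tested, none was called; VWF (log2 change -0.47, edgeR adjusted p 0.0987) and CD68 (-0.59, 0.128) had unadjusted p under 0.05.

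Among the 34 Notch genes, 27 passed the filter on low counts and were tested. JAG1, MAML2 and HEY2 were higher in NPY1R high cells, and LFNG was lower. The other 23 did not pass the test. A call here means a Benjamini-Hochberg adjusted p under 0.05 over all 14008 tested genes in edgeR's quasi-likelihood test. The 4 calls are 14.8% of the tested members, close to the 13.6% called among all tested genes, so the number of calls is not particular to the pathway. By direction, 5.78% of all tested genes were called higher and 7.81% lower. The share of calls that were higher was 42.5%, and it was 56.3% with upper-quartile factors and 54.0% with library totals, while the members' split stayed at 3 higher and 1 lower under both. The median log2 change (NPY1R high minus NPY1R low) of the 27 members was -0.01, against -0.03 for all tested genes, with 13 members above 0 and 14 below. Of all tested genes, 44.1% were above 0. These are bulk measurements, so fewer cells expressing a gene and less RNA per cell cannot be told apart.

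**Figure D1:**
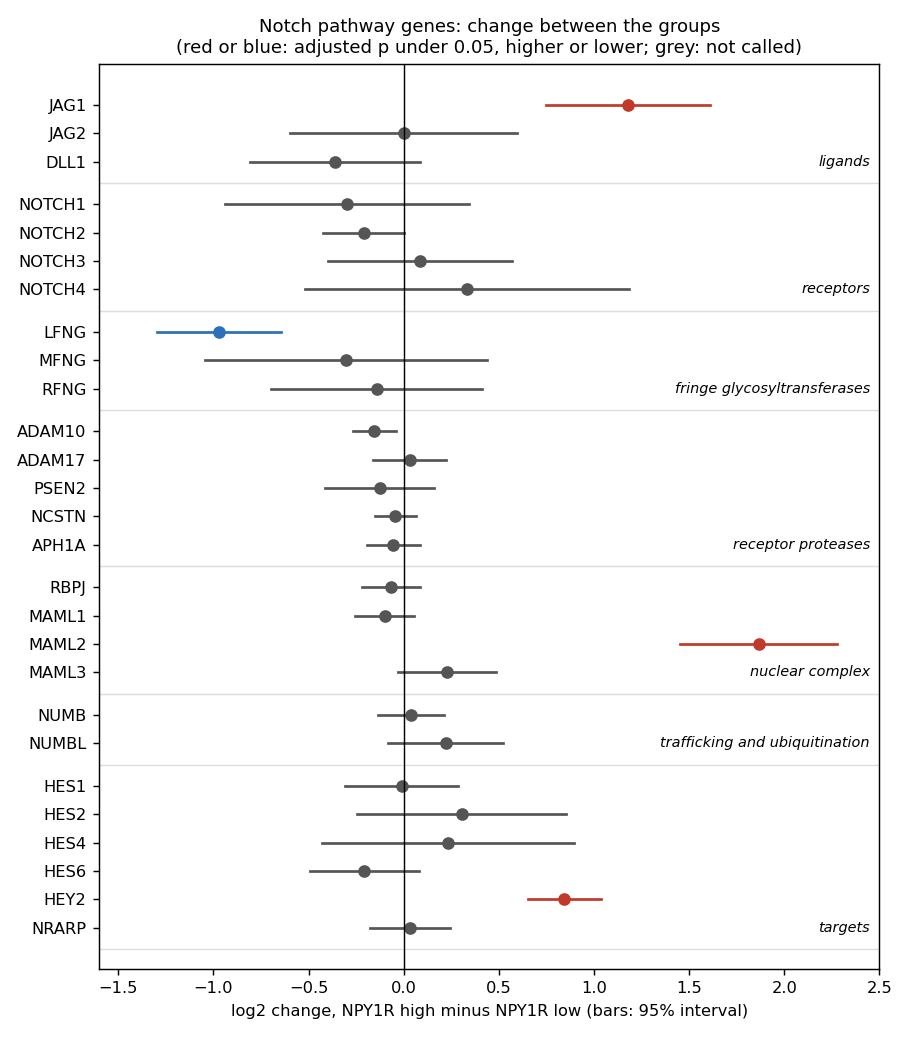
Log2 change of the 27 tested Notch genes, NPY1R high minus NPY1R low (x axis), by role (rows); points are estimates from edgeR's quasi-likelihood fit and bars their 95% intervals. MAML2 (1.87), JAG1 (1.18) and HEY2 (0.84) lie to the right of 0 and LFNG (-0.97) to the left, and the 23 grey genes were not called.

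Promoter sequences show how the members that changed compare with the textbook targets of RBPJ, whose preferred site contains GTGGGAA. RefSeq starts on GRCh38.p14 were found for 29 of the members (35 start sites), and the 250 bases before each were searched on both strands for GTGGGAA and for its shorter core TGGGAA, which every GTGGGAA also holds. Printed below are 3 HES and HEY genes that carry the motif, and JAG1 and MAML2, which rose and do not, on the gene's own strand with each TGGGAA (or its reverse complement TTCCCA) in capitals. They are HES1 at chr3:194135898-194136147 (+), HES4 at chr1:1000098-1000347 (-), HEY2 at chr6:125749382-125749631 (+), JAG1 at chr20:10674000-10674249 (-) and MAML2 at chr11:96343196-96343445 (-).
HES1: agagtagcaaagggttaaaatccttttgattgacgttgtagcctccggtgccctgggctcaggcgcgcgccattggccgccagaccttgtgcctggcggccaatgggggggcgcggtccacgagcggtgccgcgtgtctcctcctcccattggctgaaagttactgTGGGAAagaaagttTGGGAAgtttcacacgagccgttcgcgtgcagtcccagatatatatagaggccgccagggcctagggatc
HES4: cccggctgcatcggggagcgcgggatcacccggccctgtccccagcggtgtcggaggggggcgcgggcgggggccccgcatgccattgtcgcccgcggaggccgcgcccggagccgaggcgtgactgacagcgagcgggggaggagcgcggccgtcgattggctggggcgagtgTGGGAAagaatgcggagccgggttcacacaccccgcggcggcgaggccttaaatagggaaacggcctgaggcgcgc
HEY2: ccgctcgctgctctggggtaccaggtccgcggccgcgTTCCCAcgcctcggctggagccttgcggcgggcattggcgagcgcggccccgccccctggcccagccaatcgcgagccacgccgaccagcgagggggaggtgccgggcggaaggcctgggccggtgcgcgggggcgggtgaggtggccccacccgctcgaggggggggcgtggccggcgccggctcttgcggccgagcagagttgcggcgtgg
JAG1: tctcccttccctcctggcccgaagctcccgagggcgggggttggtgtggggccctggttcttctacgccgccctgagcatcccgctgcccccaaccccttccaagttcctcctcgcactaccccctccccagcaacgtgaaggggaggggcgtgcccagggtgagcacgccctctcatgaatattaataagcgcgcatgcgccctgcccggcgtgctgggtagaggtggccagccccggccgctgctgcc
MAML2: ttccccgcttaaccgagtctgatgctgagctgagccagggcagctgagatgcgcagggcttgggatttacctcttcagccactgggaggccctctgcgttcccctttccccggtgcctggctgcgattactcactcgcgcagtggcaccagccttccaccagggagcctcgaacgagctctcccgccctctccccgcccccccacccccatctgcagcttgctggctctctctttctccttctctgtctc

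GTGGGAA was found before at least 1 start of 6 of the 29 members searched: HES1, HES4, HES5, HEY2, HEYL and RBPJ. Among all 35116 starts in the RefSeq table, 5.43% held it. The core TGGGAA was found in these 6 and before a start of LFNG, and in 20.8% of all starts. Members were counted per gene and the background per start. A gene with several starts has more chances to count, so the shares differ in unit. The HES and HEY genes are on the list as targets of the pathway, so an excess over the background was built in. Of the called members only HEY2 held GTGGGAA, while HES1 and HES4 held it and were not called. Counting the base before the start as -1, HES1 has the motif at -85 to -79 and a further TGGGAA at -70 to -65, both on the gene's strand. HES4 has it at -77 to -71 on the gene's strand, whereas in HEY2 it lies at -213 to -207 on the other strand. GENCODE starts HEY2 at 125747664, so the bases printed for HEY2 lie inside the gene by that annotation. The place of its motif relative to the start thus depends on the annotation. A match of letters is a description and no evidence of binding.

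Ligands come first in the pathway. JAG1, a transmembrane ligand of the Jagged family, rose 2.26-fold in NPY1R high cells. It lies on chromosome 20 (GRCh38, 10637684 to 10673999, minus strand). Its CPM was 10.7, 11.6, 9.01 and 7.49 in high replicates 1 to 4 and 5.37, 4.73, 3.11 and 3.89 in low replicates 1 to 4. Every high library stood above every low library; the nearest pair was high replicate 4 and low replicate 1. The means were 9.70 ± 1.82 and 4.27 ± 0.98 CPM, a log2 change of 1.18 (SE 0.19), and edgeR's adjusted p was 0.00271.

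No other ligand was called. JAG2, the second Jagged ligand, had 4.70 to 8.93 CPM in high libraries and 3.89 to 8.69 CPM in low libraries, with a log2 change of 0.00 and a 95% interval from -0.60 to 0.60. DLL1, a Delta-like ligand, had 3.01 to 4.07 CPM in high libraries against 2.91 to 5.08 CPM in low libraries, with a log2 change of -0.36 (SE 0.20), and edgeR's adjusted p was 0.304. DLL1 was low in low replicate 4 and at 4.83 to 5.08 CPM in the other 3. Without that library its log2 change was -0.48, with an adjusted p of 0.0558. DLL3, which unlike its relatives does not activate Notch on neighbouring cells, had 0 to 8 counts per library. DLL4, best known as the ligand of sprouting vessels, had 4 to 13 counts. Neither DLL3 nor DLL4 was tested. Divided by the median transcript length, JAG1 had 12.8 ± 2.41 and 5.65 ± 1.302 CPM per kb, JAG2 2.96 ± 0.86 and 2.95 ± 0.90, and DLL1 1.88 ± 0.29 and 2.40 ± 0.56. With the longest transcript the 3 were at 1.18, 1.15 and 1.25 CPM per kb over the 8 libraries, so their order depends on the length used.

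No receptor was called. NOTCH2 was the most abundant of the 4 per length: divided by the median length of its annotated transcripts it had 109 ± 15.9 CPM per kb in high libraries and 126 ± 2.09 in low libraries. NOTCH3 followed with 78.2 ± 18.8 and 73.6 ± 17.8 CPM per kb, then NOTCH1 with 14.5 ± 4.17 and 17.8 ± 6.19, and NOTCH4, a receptor mostly of endothelium, with 0.130 ± 0.041 and 0.102 ± 0.041. The order NOTCH2, NOTCH3, NOTCH1, NOTCH4 was the same with the length of the longest transcript, at 25.8, 5.75, 1.29 and 0.053 CPM per kb over the 8 libraries, and neighbours in it differed by more than the SD of either group.

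NOTCH2 had 279, 310, 216 and 285 CPM in high replicates 1 to 4 and 313, 312, 323 and 312 CPM in low libraries. All 4 high libraries were lower, but replicate 3 alone was far lower and replicate 2 was close to the low level. The log2 change was -0.21 (SE 0.10), and edgeR's adjusted p was 0.198. NOTCH2 counts were not whole in any of the 8 libraries, and its near-identical partial copy NOTCH2NL had 634 to 1063 counts, so reads may be split between them and the value is uncertain. NOTCH1 had 6.55 to 13.1 CPM in high libraries and 7.07 to 18.1 CPM in low libraries, with a log2 change of -0.30 (95% interval -0.94 to 0.35). NOTCH3 had 33.7 to 61.8 CPM against 30.8 to 54.8 CPM, with a log2 change of 0.09 (95% interval -0.40 to 0.57). NOTCH4, with 4 to 15 counts per library, had a wide interval, from -0.52 to 1.18. In edgeR's test no receptor had an unadjusted p under 0.05, and DESeq2 and limma-voom also called none.

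NOTCH1, NOTCH3 and JAG2 varied more between replicates than between groups, and the same 2 libraries were low in all 3. High replicate 3 was the lowest of its group for NOTCH1, NOTCH2, NOTCH3 and JAG2, and low replicate 4 was the lowest of its group for NOTCH1, NOTCH3, JAG2, DLL1 and RFNG. In these 2 libraries levels were lower the higher the GC content of the transcripts: Spearman's rho of deviation with transcript GC, taken over genes, was -0.420 and -0.557, against values between -0.030 and 0.450 in the other 6 (genes are not independent replicates). The transcripts of NOTCH1 (64.1% GC), JAG2 (64.0%), RFNG (64.4%), DLL1 (62.8%) and HES4 (74.2%) are GC-rich. With each library's GC trend removed, the SD within groups of log2 CPM fell from 0.53 to 0.28 for NOTCH1, from 0.46 to 0.22 for JAG2, from 0.43 to 0.20 for RFNG, from 0.31 to 0.16 for DLL1 and from 0.48 to 0.13 for HES4. The same step raised the SD of NRARP from 0.09 to 0.43 and of HES6 from 0.18 to 0.45, although both are GC-rich (67.3% and 70.1%). With the GC offset no further member was called, and JAG1, MAML2, HEY2 and LFNG were still called.

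**Figure D2:**
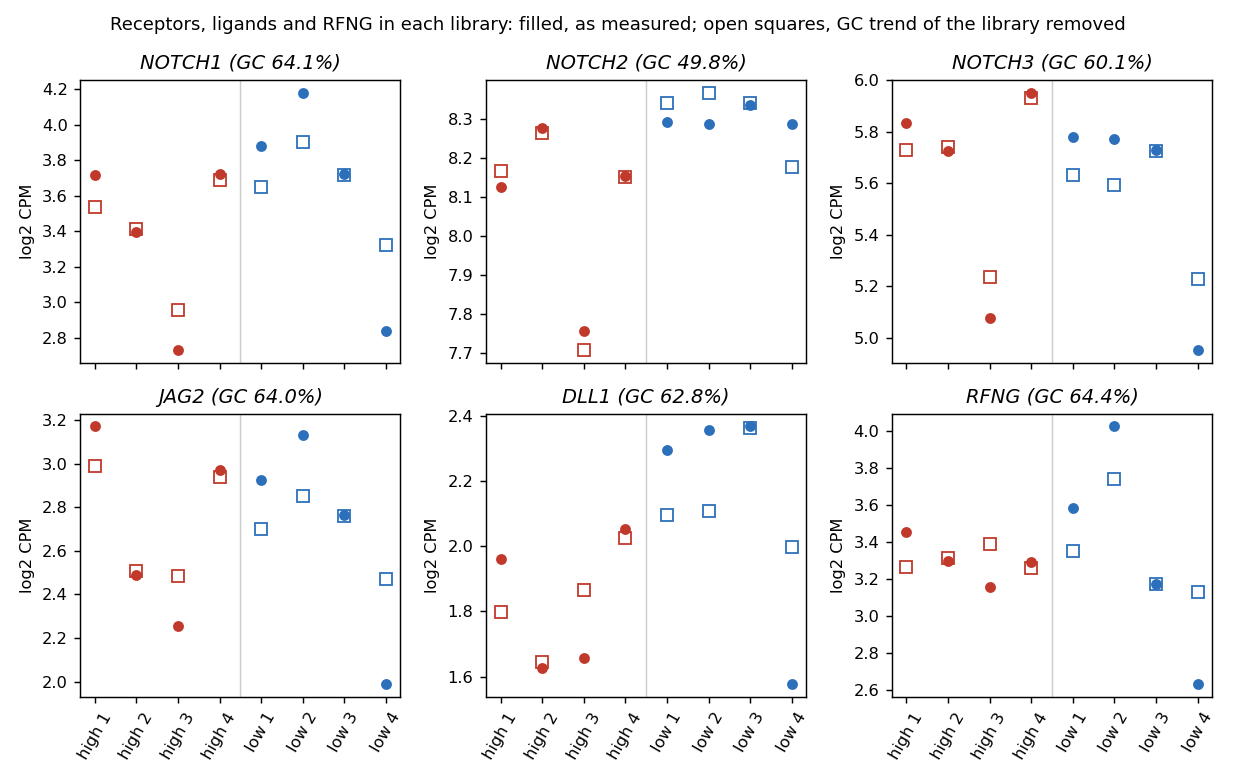
Log2 CPM (y axis) of 6 members in each of the 8 libraries (x axis; red, NPY1R high; blue, NPY1R low), as measured (filled) and with the library's GC trend removed (open squares). NPY1R low replicate 4 is the lowest as-measured NPY1R low value for NOTCH1 (2.84), NOTCH3 (4.95), JAG2 (1.99), DLL1 (1.58) and RFNG (2.63), and the squares lie closer together in these 5 genes; for NOTCH2 (49.8% GC) they do not.

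Fringe enzymes add N-acetylglucosamine to O-fucose on the receptors and so tune which ligands they answer to. LFNG (lunatic fringe), on chromosome 7 (GRCh38, 2512529 to 2529177, plus strand), was 1.96-fold lower in NPY1R high cells. Its CPM was 37.1, 29.9, 24.3 and 28.9 in high replicates 1 to 4, and 65.8, 65.4, 58.7 and 45.9 in low libraries. The groups did not overlap, and the lowest low library was again replicate 4. The means were 30.0 ± 5.29 and 58.9 ± 9.29 CPM, and the log2 change was -0.97 (SE 0.15), and edgeR's adjusted p was 0.00162. LFNG was the most abundant fringe per length, at 15.2 ± 2.69 and 29.9 ± 4.72 CPM per kb. RFNG (radical fringe) had 9.82 ± 0.83 CPM in high libraries and 10.8 ± 4.31 CPM in low libraries, a log2 change of -0.14 with a 95% interval from -0.70 to 0.41. RFNG overlaps GPS1 on the opposite strand, and how strand was used in counting is not given in the sources used here. The same limit holds for DLL1, which overlaps FAM120B (25.0 ± 1.45 CPM in high and 24.9 ± 1.82 CPM in low libraries). It also holds for MAML3 with MGST2 (10.5 ± 1.03 and 9.38 ± 0.56 CPM) and for ADAM17 with IAH1 (37.2 ± 2.05 and 33.4 ± 2.47 CPM). None of these neighbours was called. MFNG (manic fringe) had 7 to 15 counts per library and a log2 change of -0.31 (95% interval -1.05 to 0.44).

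None of the 5 proteases and subunits that release the receptor was called; 1 of them, ADAM10, had an unadjusted p under 0.05. ADAM10, the main enzyme of the outer cut, had 183, 184, 181 and 170 CPM in high replicates 1 to 4 and 194, 196, 197 and 212 CPM in low libraries. Each high library was lower, but by little: the log2 change was -0.15 (SE 0.05), and edgeR's adjusted p was 0.0745. It passed the threshold in 3 of 25 alternatives. When replicates 1 and 2 were set apart from 3 and 4 by a term in the fit, edgeR's adjusted p was 0.0471. It was 0.00805 with that term plus the GC offset, and 0.0374 with the replicate block plus the GC offset. With the GC offset alone it was 0.0742. Within replicates 1 and 2 alone the log2 change was -0.05 (edgeR's adjusted p 0.501). Leaving out single libraries gave an adjusted p of up to 0.385 in the same test. ADAM17, a related sheddase with many other substrates, had 66.6 to 77.0 CPM against 59.8 to 76.7 CPM and a log2 change of 0.03 (95% interval -0.16 to 0.22).

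Of the γ-secretase subunits among the members, PSEN2 carries the catalytic site, NCSTN (nicastrin) receives the substrate and APH1A is a scaffold. NCSTN was the steadiest tested member, at 54.6 ± 0.29 CPM in high libraries and 56.3 ± 1.11 CPM in low libraries. Its log2 change was -0.04, with a 95% interval from -0.15 to 0.06, even though the 4 high libraries were all slightly lower. APH1A had 106 ± 6.04 and 110 ± 6.62 CPM and a 95% interval from -0.19 to 0.09 on the log2 scale. PSEN2 had 25.2 ± 1.75 and 27.5 ± 5.07 CPM and a 95% interval from -0.41 to 0.16. NCSTN shares its locus with COPA on the other strand, which was called lower (log2 change -0.25, SE 0.05). COPA was more abundant than NCSTN, at 390 ± 6.37 CPM in high and 463 ± 24.9 CPM in low libraries. The limit on strand given for RFNG holds for NCSTN too, and a share of COPA reads in its counts was not tested.

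In the nuclear complex, 1 Mastermind gene changed and its relatives did not pass the test. MAML2, a co-activator that bridges the receptor domain to the transcription machinery and is known from gene fusions in salivary gland tumours, was 3.64-fold higher in NPY1R high cells. It lies on chromosome 11 (GRCh38, 95976598 to 96343180, minus strand). Counts were 96, 109, 79 and 73 in high replicates 1 to 4 and 31, 28, 17 and 27 in low libraries. In CPM this was 3.30, 4.05, 2.86 and 4.02 against 1.04, 0.98, 0.78 and 1.06, so the lowest high library was well above the highest low library. The means were 3.56 ± 0.58 and 0.97 ± 0.13 CPM. This was the largest change of any tested member, with a log2 change of 1.87 (SE 0.18), and edgeR's adjusted p was 0.000138.

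MAML2 remained the least abundant Mastermind gene per length in both groups, at 0.693 ± 0.113 and 0.188 ± 0.025 CPM per kb, against 77.3 ± 4.98 and 82.9 ± 5.73 for MAML1 and 14.6 ± 1.95 and 12.5 ± 0.84 for MAML3. With the longest transcript as length the order was the same, at 12.5 for MAML1, 1.64 for MAML3 and 0.318 for MAML2 over the 8 libraries. MAML1 had a log2 change of -0.10 (95% interval -0.26 to 0.06) and MAML3 of 0.23 (95% interval -0.03 to 0.49). RBPJ, the DNA-binding partner on which the complex is built, had 76.6, 77.6, 79.2 and 73.5 CPM in high libraries and 73.7, 76.2, 82.5 and 89.2 CPM in low libraries. The groups overlapped, with a log2 change of -0.07 (SE 0.07, 95% interval -0.22 to 0.08).

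NUMB, an adaptor that takes the receptor into endosomes and so dampens the signal, had 48.0, 49.0, 54.6 and 56.7 CPM in high libraries and 48.5, 46.6, 53.0 and 54.4 CPM in low libraries. Within both groups replicates 3 and 4 were above replicates 1 and 2, and the group means differed by a log2 of 0.04 (SE 0.08). Its relative NUMBL had 6.59 to 8.40 against 5.30 to 7.07 CPM and a 95% interval from -0.08 to 0.52. DTX1, a ubiquitin ligase of the deltex family and a Notch target in lymphocytes, had at most 2 counts in any library and was not tested.

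Among the targets, HEY2 rose and the others did not pass the test. HEY2, a repressor of the HEY family with known roles in heart and vessel formation, lies on chromosome 6 (GRCh38, 125747664 to 125761269, plus strand) and was 1.80-fold higher in NPY1R high cells. Its CPM was 17.8, 20.1, 21.3 and 20.3 in high replicates 1 to 4 and 11.5, 11.3, 10.5 and 11.0 in low libraries. No other called member was so even within the groups, at 19.9 ± 1.48 and 11.1 ± 0.41 CPM. The log2 change was 0.84 (SE 0.09), and edgeR's adjusted p was 0.000171. Its relatives HEY1, with 3 to 13 counts per library, and HEYL, with 0 counts in all 8 libraries, were not tested. A count of 0 allows up to 3 counts, which is 0.101 to 0.165 CPM depending on the library, and covers counting error only.

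HES1, the best known Notch target and a repressor that keeps progenitors undifferentiated, was the most abundant target per length, at 56.5 ± 11.6 and 56.9 ± 4.33 CPM per kb. Its CPM was 64.7, 56.3, 87.2 and 84.0 in high replicates 1 to 4 and 70.0, 68.3, 75.5 and 80.6 in low libraries. The low libraries lay inside the range of the high libraries. The log2 change was -0.01 (SE 0.13), with a 95% interval from -0.31 to 0.28, and its sign changed with the scaling (0.04 with upper-quartile factors). NRARP, which is induced by Notch and limits it in return, had 10.6 to 12.4 CPM in high libraries and 10.5 to 11.9 CPM in low libraries, a log2 change of 0.03 with a 95% interval from -0.18 to 0.24. For HES1 and NRARP the intervals end short of the change of HEY2; the difference between the genes was not tested.

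HES2 had 2.75 to 6.06 CPM against 2.73 to 4.12 CPM, with a log2 change of 0.30 (95% interval -0.24 to 0.85). HES4 had 1.52 to 2.54 CPM against 0.90 to 2.49 CPM, with a log2 change of 0.23 (95% interval -0.43 to 0.89). HES6, which can oppose HES1, had 7.03 to 10.5 CPM against 9.23 to 10.6 CPM, with a log2 change of -0.21 (95% interval -0.49 to 0.08). HES5, a target in neural progenitors, and HES7, part of the segmentation clock, had at most 2 and 1 counts in any library and were not tested.

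**Figure D3:**
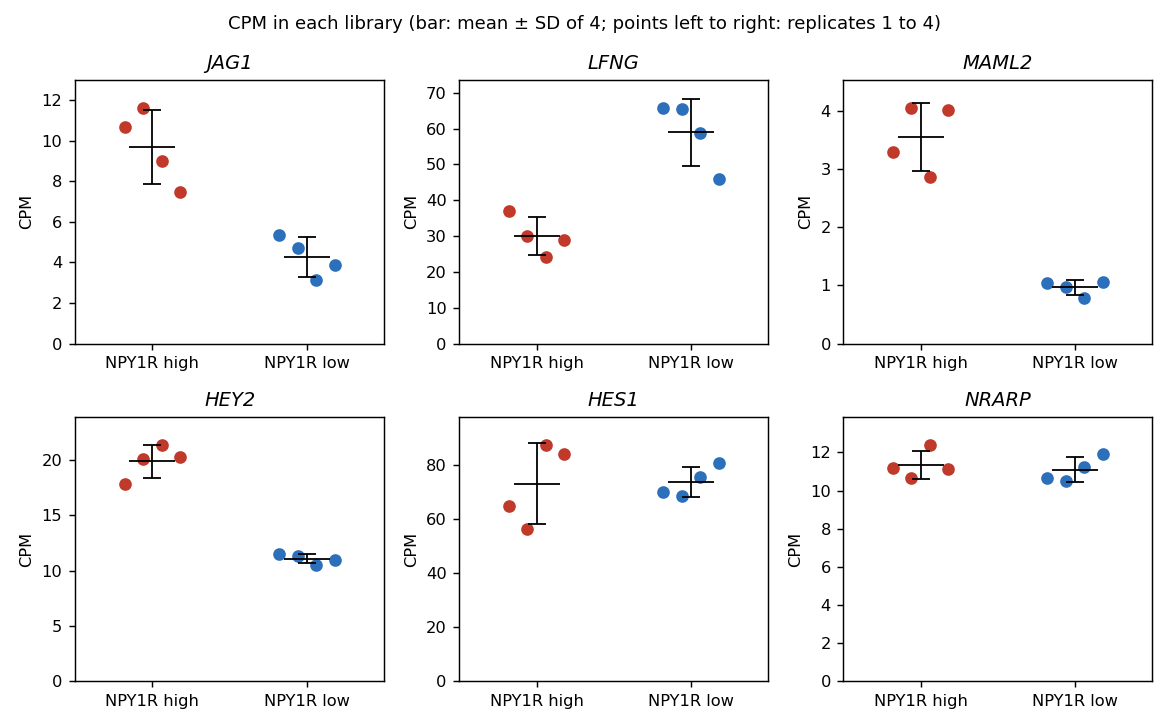
CPM (y axis, from 0) of the 4 called members and of HES1 and NRARP in each library; points are replicates 1 to 4 from left to right and bars the mean ± SD of 4. The groups do not overlap for JAG1, LFNG, MAML2 and HEY2, and they do for HES1 and NRARP.

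Set side by side, 1 of 7 tested ligands and receptors (JAG1) and 1 of 5 tested HES and HEY genes (HEY2) were called, both higher. Among all tested genes 13.6% were called in either direction and 5.78% higher. With 1 call each, sets this small cannot be told apart from those shares. The median log2 change was 0.00 for the ligands and receptors and 0.23 for the HES and HEY genes. Without low replicate 4 the second median was 0.07. Mean log2 CPM over the 7 ligands and receptors was 3.05 to 3.64 in high libraries and 2.79 to 3.57 in low libraries. Over the 5 HES and HEY genes it was 3.12 to 3.56 against 2.96 to 3.17. Both pairs of ranges overlapped, and the lowest library was low replicate 4 in both.

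Over all tested members the groups did not overlap for 3 genes that were higher (JAG1, MAML2 and HEY2) and 4 that were lower (LFNG, NOTCH2, ADAM10 and NCSTN), 7 of 27. Among all tested genes 8.77% were higher without overlap and 11.4% lower, 20.2% in all. With the GC trend removed, NOTCH2, ADAM10 and NCSTN overlapped, and HES4 was higher without overlap. Within replicates 1 and 2 alone and within replicates 3 and 4 alone, JAG1 had log2 changes of 1.18 and 1.27, and MAML2 of 1.90 and 1.91. HEY2 had 0.78 and 0.98, and LFNG -0.93 and -0.95. All 4 were called in each subset. The subsets are parts of the same libraries that gave the calls, and no label defines the split, so they are no independent support. NOTCH1 was lower within replicates 1 and 2 (log2 change -0.43, edgeR adjusted p 0.0436) and differed by -0.02 within replicates 3 and 4, and the difference between these values was not tested.

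A further 67 genes of the pathway were listed, and 59 of them were tested. Of these 5 were called higher and 6 lower, 18.6% in all, against 13.6% of all tested genes. The median log2 change was -0.08, against -0.03 for all tested genes, with 18 genes above 0 and 41 below. Of all tested genes, 44.1% were above 0. With upper-quartile factors the median of all tested genes was 0.03, so the sign of small changes depends on the scaling. Without high replicate 1, high replicate 2, low replicate 1 or low replicate 3, 3 genes were called higher in place of 5. In ligand and receptor processing, 3 of 16 (18.8%) were called. APH1B, the alternative to APH1A in γ-secretase, was at 6.24 ± 0.75 CPM in high against 4.42 ± 0.35 CPM in low libraries, a log2 change of 0.49 (SE 0.13). NEURL1B, a ubiquitin ligase that acts on ligands, had a log2 change of -0.57 (SE 0.12), and CNTN1 (contactin 1), reported as a non-classical ligand, of -0.47 (SE 0.12).

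In ubiquitination and trafficking, 3 of 12 (25%) were called, against 13.6% of all tested genes. Of the 4 tested deltex relatives, DTX4 was called lower, with a log2 change of -0.43 (SE 0.08), and DTX3L higher, at 0.26 (SE 0.07). The call of DTX3L was lost with the GC offset (log2 change 0.21, edgeR adjusted p 0.150). DTX3 (log2 change 0.33, edgeR adjusted p 0.0722) and DTX2 (0.00) were not called. LNX1, a ubiquitin ligase that targets NUMB, had a log2 change of -0.46 (SE 0.08). Among 18 co-repressors, 2 (11.1%) were called. TLE3, of the Groucho family, was at 65.4 ± 9.34 CPM in high against 95.5 ± 12.4 CPM in low libraries, a log2 change of -0.55 (SE 0.12). Its relative TLE4, which is below the level set for naming genes and was picked after its values were seen, had 11 to 41 counts per library, a log2 change of 1.40 (SE 0.24). None of 6 co-activators was called, EP300 and CREBBP included, with log2 changes between -0.26 (CDK8) and 0.04 (KAT2A); in edgeR's test 1 of the 6, CDK8, had an unadjusted p under 0.05 (0.0123).

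Of 7 tested genes reported elsewhere as Notch targets, 3 (42.9%) were called, 2 higher and 1 lower, against 13.6% of all tested genes. The list is small and was chosen with earlier results known, so its count was not tested against that share. MYC, a driver of growth, had 156 ± 10.7 CPM in high libraries and 106 ± 9.13 CPM in low libraries, a log2 change of 0.56 (SE 0.07). IGF1R, the receptor for insulin-like growth factor 1, had a log2 change of 0.40 (SE 0.10). BIRC5 (survivin), which also works in mitosis, was at 42.6 ± 6.30 CPM in high libraries and 82.5 ± 7.55 CPM in low libraries, a log2 change of -0.95 (SE 0.11). CCND1, CDKN1A, SOX9 and NFKB2 were not called. Calls were lost when single libraries were left out for CNTN1 (without high replicates 1, 2 or 4, or low replicates 1, 2 or 4; edgeR adjusted p up to 0.117), APH1B (high 1, 3 or 4, low 1 or 3; up to 0.0875), DTX3L (high 1 or 2, low 3; up to 0.110), IGF1R (high 2, low 1 or 2; up to 0.0580) and NEURL1B (high 4; 0.0582). Calls of MYC, BIRC5, DTX4, LNX1 and TLE3 were kept in each of these 8 fits. Within replicates 3 and 4 alone, DTX4 (edgeR adjusted p 0.0893), LNX1 (0.0807), TLE3 (0.134), CNTN1 (0.280), DTX3L (0.121), IGF1R (0.228) and APH1B (0.0662) were not called. APH1B was not called within replicates 1 and 2 either (edgeR adjusted p 0.234). CNTN1 also lost its call with upper-quartile factors (edgeR adjusted p 0.0623) and without a filter on low counts (0.0553).

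**Figure D4:**
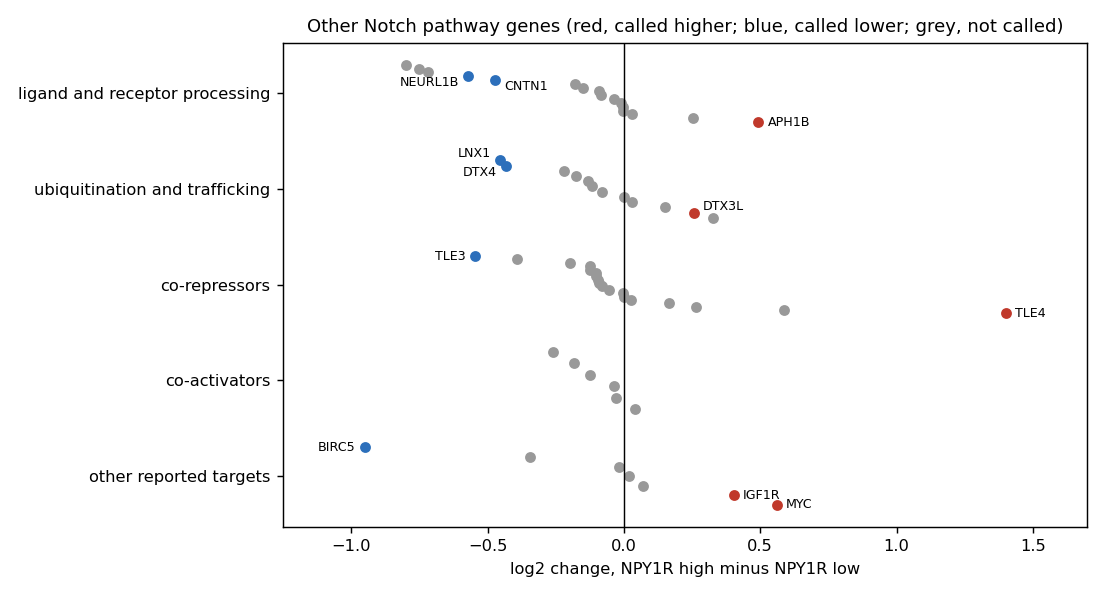
Log2 change (x axis, NPY1R high minus NPY1R low) of the 59 tested further genes of the pathway, in 5 lists (y axis; height within a list only spreads the points). The 11 called genes are named, from BIRC5 (-0.95) to TLE4 (1.40).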

How the data were processed

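The authors deposited expected counts per gene symbol, unscaled. The submitters' processing notes name STAR 2.5.2, RSEM 1.3.0 and hg38; the annotation and strand setting are not given in the sources used here. Per the labels' protocols, a stranded kit (TruSeq) was used, with an input of 200 ng total RNA. The 8 single-sample tables held the values of the series table (0 differences), and no column was left unmatched (0). Between 7.97% and 8.76% of values were not whole. The design had been written for counts, and expected counts were rounded first. Pairs of libraries within a group differed beyond sampling noise (chi-square 5.75 to 62.2 per degree of freedom).

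Genes were filtered by filterByExpr (minimum count 10), scaled by TMM (trimmed mean of log ratios) and tested with edgeR 4.0.16's quasi-likelihood test in R 4.3.3, with Benjamini-Hochberg adjustment over 14008 genes. SE came from the F statistic. Log2 CPM used a prior count of 2. The procedure was tested on simulated data. These had the same relative spread for every gene and no GC trend between libraries, so that test does not cover the GC trends seen here. Positions, transcript lengths and GC came from GENCODE release 29 (GRCh38), and 94.1% of tested genes had a GC value; the GC offset removed each library's spline trend (5 degrees of freedom). CPM per kb used the median transcript length, which short annotated fragments reduce.

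The members and lists were chosen with earlier results of these data known. Values in every library were given for called members and the most abundant member per kb of each role. Of the further genes, those called with a mean of at least 5 CPM were named. Alternatives were other scalings, filters, DESeq2 1.42.0, limma 3.58.1 (voom), robust shrinkage, a replicate block, GC offsets, subsets of replicates and leaving out each library.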

Additional observations from a re-analysis of the deposited data

Results flagged for a closer look

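In 4 of 56 sets of 4 libraries (27 members and NPY1R, in each group), 1 library stood apart from the other 3 by Dixon's rule. Its gap to the nearest neighbour, divided by the range of the 4 log2 CPM values, exceeded the 95% critical value for 4 values. Chance alone gives about 1 in 20, here 2.8. In NPY1R low replicate 4, DLL1 had 2.91 CPM against 3 others at 4.83 to 5.08. NOTCH3 in the same library had 30.8 CPM where the others had 52.9 to 54.8. ADAM10 there had 212.3 CPM, above the 194 to 197 CPM of the others. DLL1 and NOTCH3 have transcripts of 62.8% and 60.1% GC and ADAM10 of 41.6%, and this library had the lowest rho between deviation and GC content, -0.557. With the GC trend removed, the log2 CPM of DLL1 in this library was 2.00, against 2.09 to 2.36 in the other NPY1R low libraries. For NOTCH3 it was 5.23 against 5.59 to 5.72, and for ADAM10 7.55 against 7.62 to 7.72. The part of GC content in these values was not tested. In NPY1R low replicate 3, NOTCH2 had 322.6 CPM where the others had 312 to 313, a small gap flagged because those others were nearly equal.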

How the results depend on the processing

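JAG1, MAML2, HEY2 and LFNG kept their direction and an adjusted p under 0.05 in all 25 alternatives, the highest being 0.0151, 0.0124, 0.00627 and 0.0111. Of 669 values for the 27 tested members, 633 kept direction and side of the threshold, 4 passed it newly (ADAM10 and NOTCH1, given above) and 32 changed sign, all for genes not called. HES1 gave 13 of the 32 changed signs: 0.015 with median-of-ratios factors and 0.015 with DESeq2, 0.044 with upper-quartile factors, 0.025 with library totals, 0.020 with another TMM reference, 0.029 without a filter, 0.031 at 1 CPM, 0.030 at 10 counts and 0.17 within replicates 3 and 4. With upper-quartile factors NCSTN was at 0.0099 and APH1A at 6.2e-05. JAG2 was at -0.0033 with limma-voom and -0.12 within replicates 1 and 2, where RBPJ was at 0.081. Within replicates 3 and 4 RFNG was at 0.33 and PSEN2 at 0.062. NRARP was at -0.0025 with the GC offset, and NUMB at -0.00017 (replicate block, GC offset) and -0.00038 (term for replicates 1 and 2 against 3 and 4, GC offset). Leaving out each library gave -0.0800 to 0.10 for HES1, -0.17 to 0.17 for JAG2, -0.0868 to 0.0181 for APH1A, -0.30 to 0.12 for RFNG, -0.0306 to 0.12 for ADAM17, -0.0453 to 0.27 for NOTCH3 and -0.0921 to 0.0229 for RBPJ. The causes were not tested.

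Members called lower were 2 in place of 1 with the replicate block plus GC offset, with the same term, whether or not the GC offset was added, and within replicates 1 and 2. Leaving out each library gave 3 higher and 1 lower every time. Further genes called lower were 10 under the replicate block plus GC offset, 13 with the term and GC offset, 2 within replicates 3 and 4 and 3 at an adjusted p under 0.01, against 6. Further genes called higher were 1 within replicates 3 and 4 and 2 at 0.01, against 5, and 3 to 6 when each library was left out (lower, 4 to 6). Over all tested genes, calls were 810 higher and 1094 lower. Lower calls were 1772 under the replicate block plus GC offset and 1681 with the term. With the term and GC offset calls were 1539 higher and 2264 lower, within replicates 1 and 2 1421 higher, within replicates 3 and 4 445 higher and 443 lower, and at 0.01 470 higher and 562 lower. Leaving out each library gave 624 to 1068 higher and 625 to 1064 lower; the lower count moved most without NPY1R high replicate 4 (625), NPY1R low replicate 1 (678) and NPY1R high replicate 3 (710). The median change of the HES and HEY genes was 0.0545 within replicates 1 and 2, 0.54 within replicates 3 and 4, and 0.0716 to 0.32 when each library was left out. That of the ligands and receptors then ranged from -0.17 to 0.17, and NPY1R from 3.08 to 3.25.

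Levels per kb fell with the longest transcript as length, to 1.18 for JAG1, 25.8 for NOTCH2, 18.7 for LFNG, 16.6 for ADAM10, 13.1 for RBPJ, 9.93 for NUMB and 46.5 for HES1 (CPM per kb over 8 libraries), so levels of different genes depend on the length chosen.

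Whether replicate numbers pair the samples is not stated by the labels. Deviations of same-numbered libraries correlated at 0.339, 0.157, 0.0907 and 0.0178 across genes. Differently numbered libraries were not compared in this way, so these values cannot settle whether the numbers mark pairs. The replicate block without the GC offset changed no call among the members; APH1B was not called with it (edgeR adjusted p 0.0734), nor with the GC offset added (0.0661). Counts under about 15 per library limit what can be said of NOTCH4 and MFNG.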
